A study of Sus scrofa with 6 samples.

Results

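Aminoacyl-tRNA synthetases were examined in the longissimus dorsi, the long muscle of the back, of 6 Nanyang Black pigs, with 1 RNA library per pig. The members were the rows of the deposited expression table whose symbol names a synthetase, together with AIMP1, AIMP2 and EEF1E1, the scaffold proteins of the multi-synthetase complex. By symbol, 36 of 25878 listed genes were found. Of these, 20 carry no suffix and are called cytosolic here (synthetase genes with AIMP1 and AIMP2), and 16 carry the suffix 2 and encode mitochondrial enzymes. A further 3 genes, AARS1 (ENSSSCG00000002723), SARS2 (ENSSSCG00000002972) and EEF1E1 (ENSSSCG00000036257), have a blank symbol in the table, were matched by gene ID, and are given apart from the 36. The symbol FARSB, the second subunit of the phenylalanine enzyme, was not analysed here. The study divided its pigs by fat measurements into a high-fat deposition (HF) and a low-fat deposition (LF) group, and 3 pigs of each, HF01 to HF03 and LF01 to LF03, were sequenced; values below follow that order. All 6 were of the Nanyang Black breed and, by the deposited labels, 180 days old (the paper's phenotype table gives another age). The labels name no treatment, and the study's methods describe related female pigs kept under standard conditions on 1 farm. The groups differ by a measured trait and not by an intervention, so whatever else differs between these pigs cannot be told apart from fat deposition.

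Aminoacyl-tRNA synthetases join each amino acid to its own tRNA, and the charged tRNA carries that amino acid to the ribosome. A mammalian cell runs this reaction in the cytosol and again inside mitochondria, mostly with separate nuclear genes, and the mitochondrial set serves only the few respiratory chain proteins encoded by mitochondrial DNA. GARS and KARS serve both places from 1 gene each, and mitochondria have no glutamine enzyme of their own: there glutamyl-tRNA is converted by the amidotransferase of QRSL1, GATB and GATC. In the cytosol several synthetases (EPRS, IARS, LARS, MARS, QARS, RARS, KARS and DARS) are held in a multi-synthetase complex by the scaffold proteins AIMP1, AIMP2 and EEF1E1, while VARS binds the elongation factor complex that supplies the ribosome.

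The values are FPKM (fragments scaled to transcript length and to the mapped fragments of the library), which the authors made and which may be compared between genes as levels per length. The groups were compared with limma on log2(FPKM + 0.1) over the 11136 genes whose mean reached 0.5 FPKM, two-sided, and calls were made below 0.05 after Benjamini-Hochberg adjustment over all of them. All 36 members passed this minimum, and all 36 were above 0 in every pig, the lowest single value being 0.725 FPKM. On this scale the fold change of a scarce gene comes out too small. The number of reads behind each value is not known from FPKM. Over all genes, limma called 8 (0.0718%), 4 higher and 4 lower in HF (0.0359% in each direction); without LF02 the number called was 226 in place of 8. Summed FPKM of all genes ran from 598096 in LF02 to 961903 in HF02. Skeletal muscle markers were abundant in every library (summed 23157 to 48035 FPKM in HF and 43028 to 66044 FPKM in LF), although ACTA1, muscle actin, is listed at 0 in HF01 and HF03. These sums overlapped, and without ACTA1 they did too, at 23157 to 37426 FPKM in HF and 27887 to 52603 FPKM in LF.

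No synthetase or scaffold gene passed limma in either direction. Of the 36 members, 28 were lower and 8 higher in HF by the mean of their log2 values, which "on average" stands for below, and the median log2 fold change was -0.27, beside 51.9% negative and a median of -0.03 over all tested genes. At an unadjusted p under 0.05, 11 members were lower in HF, against 13.8% of all tested genes, and 0 were higher, against 11.0% of all tested genes. The 11 were VARS, AIMP1, RARS, FARSA, LARS, DARS, MARS, TARS, NARS, TARS2 and HARS2. At an adjusted p under 0.10, 1 member (VARS) was lower, where 3.49% of all tested genes were.

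The cytosolic and the mitochondrial genes gave different counts. Of the 20 cytosolic members, 19 were lower on average in HF (negative log2 fold change), and their median was -0.41. In 13 of the 20, each HF pig lay below each LF pig, where 17.1% of all tested genes did so, and in 0 of the 20 did the HF pigs lie above, where 12.8% of all tested genes did so. At an unadjusted p under 0.05, 9 of the 20 were lower, where 13.8% of all tested genes were. With a pig left out this count was 2 to 7 (4 without HF01, 5 without HF02 and 2 without LF03), while the median ran from -0.47 to -0.32. Over all genes the number called with a pig left out ran from 1 to 226, beside 8 with all pigs. What lowered the cytosolic count was not tested. Of the 16 mitochondrial members, 9 were lower and 7 higher on average in HF, and their median was -0.03, a sign that turned without HF01 (0.03) or LF01 (0.06). In 3 of these the HF pigs lay below the LF pigs and in 1 above, and 2 of the 16 were lower at an unadjusted p under 0.05. These counts stand beside 17.1%, 12.8% and 13.8% of all tested genes. For a single gene, an exact permutation test over the 10 divisions of 3 and 3 pigs gives p = 0.1 at best, and each gene whose groups did not overlap reached it. The difference between the cytosolic and the mitochondrial counts was not tested.

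**Figure D1:**
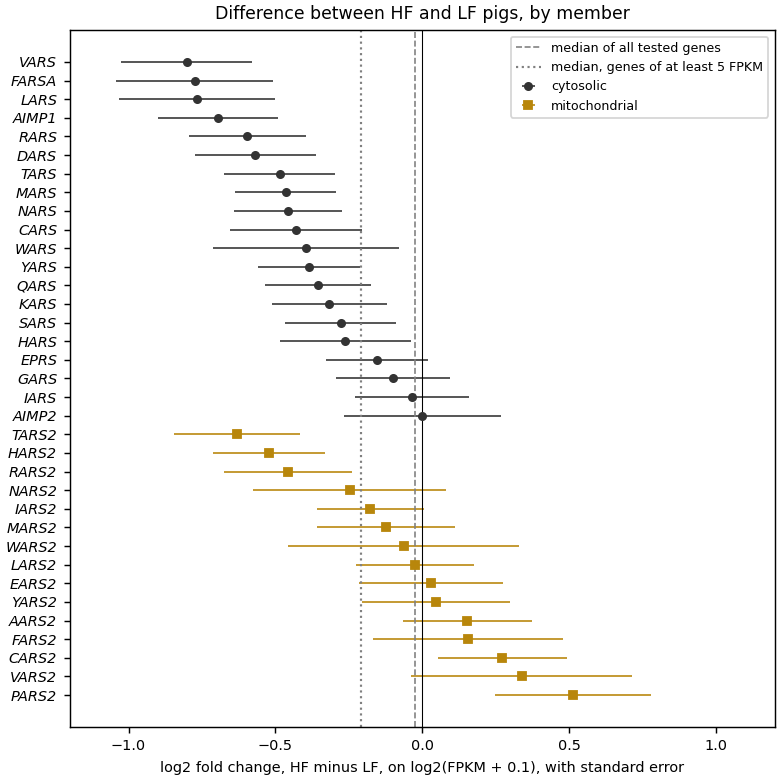
Log2 fold change of each member between HF and LF pigs (x axis, HF minus LF, on log2(FPKM + 0.1)), with bars of 1 standard error from limma, n = 3 pigs per group. Black circles are the 20 cytosolic and gold squares 15 of the 16 mitochondrial members; 19 of the 20 circles lie left of 0, while the squares lie on both sides (8 left, 7 right), and the vertical lines mark the median of all tested genes (-0.03) and of those at 5 FPKM or more on average (-0.21).

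The cytosolic genes were also the more abundant, and across all genes the log2 fold change went with level. Of the 20 cytosolic members 17 averaged 5 FPKM or more, and of the 16 mitochondrial members 4. Among all tested genes at or above 5 FPKM, 68.1% were lower on average in HF (median -0.21), and below 5 FPKM 37.3% were (median 0.16). The 17 abundant cytosolic members had a median of -0.46 and 16 negative values. In 11 of the 17 the HF pigs lay below the LF pigs, and 9 had an unadjusted p under 0.05, all lower, beside 27.0% and 22.7% of all tested genes at or above 5 FPKM. All 4 abundant mitochondrial members (IARS2, NARS2, RARS2 and HARS2) had a negative value, with a median of -0.35, although that of NARS2 rested on LF01 (0.13 without it) and that of IARS2 was -0.078 without HF01. The 12 mitochondrial members under 5 FPKM had a median of 0.04, with 5 negative, while the 3 cytosolic members under 5 FPKM (YARS, HARS and CARS) had a median of -0.39, with 3 negative. Between 5 and 20 FPKM, the median of 12 cytosolic members was -0.46, beside -0.16 for all tested genes of those levels. At 20 FPKM or more, the median of 5 cytosolic members was -0.36, beside -0.29 for all tested genes of those levels. The part of level in the difference between the cytosolic and the mitochondrial genes was not tested.

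**Figure D2:**
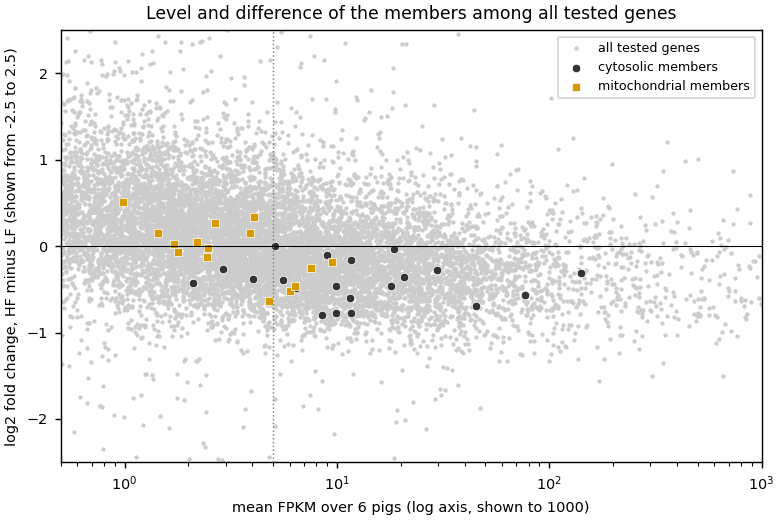
Mean FPKM over the 6 pigs (x axis, log scale) and log2 fold change, HF minus LF (y axis), of all tested genes in grey, with the 20 cytosolic members as black circles and 15 of the 16 mitochondrial members as gold squares; the dotted line marks 5 FPKM and the axes are cut at 1000 FPKM and at -2.5 and 2.5. The grey cloud drops from left to right (median 0.16 under and -0.21 at or above 5 FPKM), most black circles lie in its right part below 0, and the gold squares lie mostly left of the dotted line.

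In level, the lysine enzyme stood first. KARS (chromosome 6, 12056566 to 12077051 of Sscrofa11.1, as in the table) was at 134, 113 and 131 FPKM (HF) against 177, 144 and 150.2 FPKM (LF). Every HF pig lay below every LF pig, at 126 ± 11.2 FPKM (HF) against 157 ± 17.6 FPKM (LF) (SD, n = 3 each; a log2 difference of -0.32 with a standard error of 0.19 and an adjusted p = 0.346 from limma). The lysine gene held 27.5% to 30.0% of the summed FPKM of all members in the HF pigs and 25.6% to 30.4% in the LF pigs, so its share overlapped between the groups. The KARS model overlaps those of ADAT1 and TERF2IP, so reads of these neighbours may enter its values. DARS, the aspartate enzyme, stood next, at 59.2, 55.3 and 71.4 FPKM (HF) against 78.0, 98.3 and 99.5 FPKM (LF). Here too the groups did not overlap (a log2 difference of -0.57 with a standard error of 0.21 and an adjusted p = 0.145). AIMP1 followed, and these 3 genes of the multi-synthetase complex together made up 49.7% to 54.5% of the summed FPKM of the members over the 6 pigs. At the other end stood CARS, the cysteine enzyme, with the lowest cytosolic level at 1.93, 1.37 and 2.07 FPKM (HF) against 2.19, 2.40 and 2.67 FPKM (LF), without overlap (a log2 difference of -0.43 with a standard error of 0.23 and an adjusted p = 0.273; the difference was -0.26 without HF02), and PARS2, the mitochondrial proline enzyme, with the lowest level of all. The summed FPKM of the 20 cytosolic members was 393, 360.4 and 397 in the HF pigs against 516, 504 and 525 in the LF pigs. That of the 16 mitochondrial members was 53.4, 51.3 and 62.6 in the HF pigs and 67.5, 58.4 and 62.3 in the LF pigs. The cytosolic sums did not overlap between the groups, with or without KARS and DARS, and the mitochondrial sums did.

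**Figure D3:**
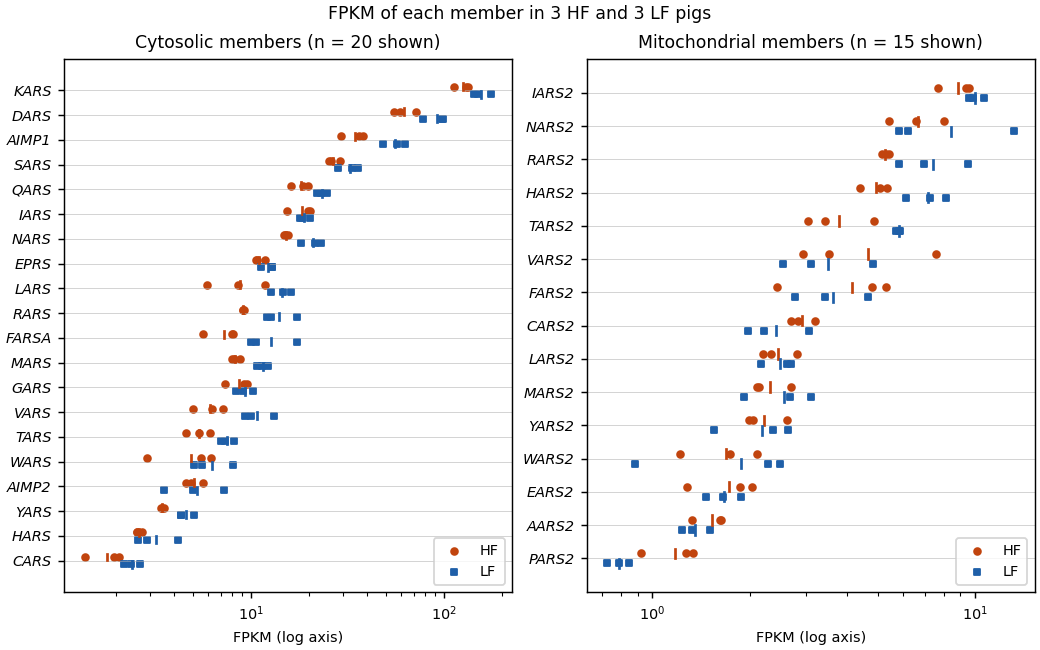
FPKM (x axis, log scale) of the 20 cytosolic members (left) and 15 of the 16 mitochondrial members (right), each ordered by mean level, with 1 point per pig (HF circles, LF squares) and a short bar at the group mean of 3 pigs. The cytosolic levels run from CARS, at 1.37 to 2.67 FPKM, to KARS, at 113 to 177 FPKM, and in 13 of 20 rows the HF points lie to the left of all LF points.

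Of the scaffold proteins, AIMP1 and EEF1E1 were lower in each HF pig than in each LF pig, and AIMP2 was not; none passed limma. AIMP1, which binds the arginine enzyme within the complex and is also cut into a secreted cytokine, was at 38.2, 36.2 and 29.4 FPKM (HF) against 62.7, 57.2 and 48.2 FPKM (LF). All HF values lay below all LF values, at 34.6 ± 4.57 FPKM (HF) against 56.0 ± 7.30 FPKM (LF) (SD, n = 3 each; a log2 difference of -0.70 with a standard error of 0.20 and an adjusted p = 0.106). AIMP2, the central scaffold on which the complex is assembled, was at 4.91, 5.63 and 4.58 FPKM (HF) against 4.98, 7.20 and 3.52 FPKM (LF). Its groups overlapped, with the highest and the lowest value both in LF pigs (a log2 difference of 0.00 with a standard error of 0.27 and an adjusted p = 1.0). EEF1E1, the scaffold protein also called AIMP3 and matched by ID, was at 3.42, 3.61 and 2.68 FPKM (HF) against 6.24, 5.37 and 7.25 FPKM (LF), without overlap (a log2 difference of -0.94 with a standard error of 0.21 and an adjusted p = 0.0852, which ran from 0.0561 to 0.258 over the alternatives). The AIMP1 model overlaps TBCK in the table, and the AIMP2 model overlaps EIF2AK1 and ANKRD61, so reads of these neighbours may enter their values.

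All 8 synthetases of the complex were lower on average in HF (median log2 fold change -0.41), and in 6 of the 8 the HF pigs lay below the LF pigs, as in 27.0% of all tested genes at 5 FPKM or more, where all 8 lie. RARS, the arginine enzyme, was at 9.23, 9.08 and 9.12 FPKM (HF) against 12.6, 12.2 and 17.3 FPKM (LF). The HF pigs lay close together and all lay below the LF pigs (a log2 difference of -0.60 with a standard error of 0.20 and an adjusted p = 0.128). LARS, the leucine enzyme, which also senses leucine for the mTORC1 growth kinase, was at 5.93, 11.8 and 8.54 FPKM (HF) against 12.6, 14.7 and 16.1 FPKM (LF), again without overlap (a log2 difference of -0.77 with a standard error of 0.27 and an adjusted p = 0.134). MARS, the methionine enzyme, was at 8.16, 7.95 and 8.77 FPKM (HF) against 11.4, 10.8 and 12.3 FPKM (LF), with HF below LF (a log2 difference of -0.47 with a standard error of 0.17 and an adjusted p = 0.150). The MARS model overlaps that of DDIT3, a stress transcription factor. IARS, the isoleucine enzyme, was at 15.4, 19.8 and 20.4 FPKM (HF) against 17.9, 20.2 and 18.4 FPKM (LF), and EPRS, which charges both glutamate and proline from 1 protein, at 10.8, 10.6 and 11.8 FPKM (HF) against 11.3, 12.8 and 12.8 FPKM (LF). These 2 genes are the complex members whose groups overlapped. Their log2 fold changes were -0.03 and -0.15 (standard errors 0.19 and 0.17), with adjusted p of 0.933 and 0.615 from limma. QARS, the glutamine enzyme, chosen after its values were seen, was at 18.2 ± 1.81 FPKM (HF) against 23.2 ± 1.37 FPKM (LF) (SD, n = 3 each), without overlap (a log2 difference of -0.36 with a standard error of 0.18 and an adjusted p = 0.261).

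Outside the complex, the 10 remaining cytosolic synthetases had a median of -0.41 as well, all 10 negative, with the HF pigs below the LF pigs in 6 of the 10. This stands beside 17.1% of all tested genes and 27.0% of those at 5 FPKM or more, where all but YARS, HARS and CARS lie. VARS, the valine enzyme, which is bound to elongation factor 1, had the smallest p of the 36 members. It lies on chromosome 7, 23886205 to 23899066, overlaps no other listed gene, and was at 7.19, 4.98 and 6.28 FPKM (HF) against 9.95, 9.32 and 13.1 FPKM (LF). That was 6.15 ± 1.11 FPKM (HF) against 10.8 ± 2.04 FPKM (LF) (SD, n = 3 each), 43.1% lower in HF (a log2 difference of -0.80 with a standard error of 0.22 and an adjusted p = 0.0999, which ran from 0.0780 to 0.264 over the alternatives). FARSA, the catalytic subunit of the phenylalanine enzyme, was at 7.97, 5.63 and 8.07 FPKM (HF) against 10.7, 9.95 and 17.4 FPKM (LF), without overlap (a log2 difference of -0.78 with a standard error of 0.27 and an adjusted p = 0.133); LF03 lay well above the other LF pigs. TARS, the threonine enzyme, was at 4.58, 6.12 and 5.35 FPKM (HF) against 6.98, 7.37 and 8.14 FPKM (LF), and NARS, the asparagine enzyme, at 15.5, 15.1 and 14.9 FPKM (HF) against 21.4, 18.2 and 23.2 FPKM (LF). Both had every HF pig below every LF pig, with log2 fold changes of -0.49 and -0.46 and adjusted p of 0.164 and 0.173 from limma. AARS1, the alanine enzyme, matched by ID, was at 9.12, 11.2 and 9.15 FPKM (HF) against 12.9, 15.2 and 17.4 FPKM (LF), also without overlap (a log2 difference of -0.62 with a standard error of 0.20 and an adjusted p = 0.121). At the other end of this group, GARS, the glycine enzyme, was at 9.20, 7.29 and 9.50 FPKM (HF) against 10.3, 8.41 and 9.13 FPKM (LF), and the pigs of both groups were mixed (a log2 difference of -0.10 with a standard error of 0.19 and an adjusted p = 0.784). HARS, the histidine enzyme, was at 2.71, 2.57 and 2.55 FPKM (HF) against 2.88, 2.58 and 4.19 FPKM (LF), overlapping, with LF03 above the other 5 pigs (a log2 difference of -0.26 with a standard error of 0.22 and an adjusted p = 0.50; the difference was -0.061 without LF03). Of the 20 cytosolic members, 13 had their lowest value in HF02 and 13 their highest in LF03.

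Among the 16 mitochondrial enzymes 3 had HF values below all LF values, a share near the 17.1% of all tested genes. TARS2, the threonine enzyme of mitochondria, was at 3.03, 3.44 and 4.87 FPKM (HF) against 5.87, 5.70 and 5.81 FPKM (LF). The LF pigs lay close together, above all HF pigs (a log2 difference of -0.63 with a standard error of 0.22 and an adjusted p = 0.132). HARS2, the histidine enzyme, was at 4.41, 5.07 and 5.33 FPKM (HF) against 7.24, 6.10 and 8.12 FPKM (LF) (a log2 difference of -0.52 with a standard error of 0.19 and an adjusted p = 0.148). HARS and HARS2 are direct neighbours on chromosome 2, with 146 bases between the model of HARS, which ends at 142401136, and that of HARS2, which starts at 142401283. RARS2, the arginine enzyme, was at 5.13, 5.39 and 5.28 FPKM (HF) against 5.81, 6.94 and 9.52 FPKM (LF), where the groups came close (a log2 difference of -0.46 with a standard error of 0.22 and an adjusted p = 0.233; the difference was -0.26 without LF03). The models of TARS2, HARS2 and RARS2 each overlap another listed gene (ECM1, ZMAT2, and ORC3 with SLC35A1).

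PARS2 was the mitochondrial member with HF values above all LF values, at 1.33, 0.924 and 1.27 FPKM (HF) against 0.845, 0.725 and 0.787 FPKM (LF) (1.18 ± 0.221 FPKM (HF) against 0.786 ± 0.0598 FPKM (LF), SD, n = 3 each; a log2 difference of 0.51 with a standard error of 0.26 and an adjusted p = 0.266). It lies on chromosome 6, 157589019 to 157595418 and overlaps no other listed gene. The other members with a positive value overlapped between the groups. CARS2, the cysteine enzyme, was at 3.20, 2.68 and 2.83 FPKM (HF) against 1.98, 3.06 and 2.22 FPKM (LF) (log2 fold change 0.27, adjusted p = 0.473 from limma, and a fold change from 0.15 without LF01 to 0.45 without LF02). VARS2, the valine enzyme, was at 3.52, 2.93 and 7.56 FPKM (HF) against 4.83, 3.10 and 2.54 FPKM (LF), where HF03 alone lay above the LF pigs (log2 fold change 0.34, adjusted p = 0.612). The VARS2 model overlaps 6 other listed genes. FARS2, the phenylalanine enzyme, which works as a single chain, was at 4.78, 2.43 and 5.28 FPKM (HF) against 2.76, 4.64 and 3.44 FPKM (LF), with HF02 below and the other HF pigs above all LF pigs (log2 fold change 0.16, and 0.50 without HF02). None of these 3 genes separated the groups. AARS2, the alanine enzyme, was at 1.62, 1.32 and 1.63 FPKM (HF) against 1.24, 1.33 and 1.51 FPKM (LF) (log2 fold change 0.15). YARS2, the tyrosine enzyme, was at 2.05, 2.0 and 2.61 FPKM (HF) against 2.36, 1.55 and 2.64 FPKM (LF) (log2 fold change 0.05). Their adjusted p ran from 0.699 (AARS2) to 0.930 (YARS2).

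LARS2, the leucine enzyme, was at 2.19, 2.33 and 2.81 FPKM (HF) against 2.68, 2.62 and 2.16 FPKM (LF), a log2 fold change of -0.03 with a standard error of 0.20. EARS2, the glutamate enzyme, was at 1.87, 1.28 and 2.04 FPKM (HF) against 1.66, 1.88 and 1.47 FPKM (LF) (0.03, standard error 0.24). With adjusted p of 0.954 and 0.954 from limma, these genes did not pass, and standard errors of 0.20 and 0.24 leave room for differences larger than the standard errors themselves. IARS2, the isoleucine enzyme and the most abundant mitochondrial member, was at 7.69, 9.36 and 9.58 FPKM (HF) against 9.82, 9.55 and 10.7 FPKM (LF), overlapping (a log2 difference of -0.18 with a standard error of 0.18 and an adjusted p = 0.578). NARS2, MARS2 and WARS2, named after their values were seen, overlapped too, with log2 fold changes of -0.25, -0.12 and -0.06, and the sign of each turned with a pig left out. SARS2, the serine enzyme, matched by ID, was at 1.77, 1.37 and 2.61 FPKM (HF) against 1.67, 1.72 and 1.32 FPKM (LF) (log2 fold change 0.23, adjusted p = 0.634), and without HF03 its sign turned.

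For 14 pairings of a cytosolic with a mitochondrial gene for the same amino acid (EPRS serving for both glutamate and proline), the ratio of their FPKM was taken within each pig. In 11 of 14 the cytosolic form was the higher in all 6 pigs, and the mean ratio over the pigs ran from 0.493 for histidine to 11 for proline. For histidine the mitochondrial form was the higher in every pig, with a log2 ratio of -0.89 ± 0.184 for HF and -1.15 ± 0.189 for LF pigs (SD over 3 pigs each). In 11 of 14 the mean log2 ratio was lower in HF, with a median difference of -0.34. In 4 pairings the ratios of the HF pigs lay below all those of the LF pigs. These were tyrosine (0.63 ± 0.174 in HF and 1.06 ± 0.315 in LF), cysteine (-0.68 ± 0.245 and 0.02 ± 0.315), valine (0.50 ± 0.673 and 1.64 ± 0.652) and proline (3.14 ± 0.231 and 3.81 ± 0.190). The ratio was higher in HF for isoleucine, histidine and threonine, with overlapping groups. These ratios are a description and were not tested, and the pairings set genes of unlike level side by side.

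**Figure D4:**
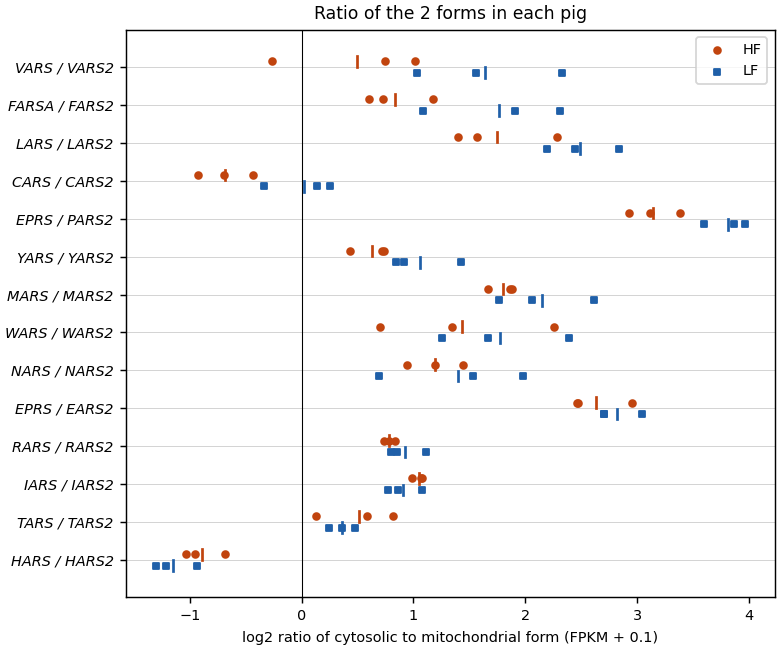
Log2 ratio of the FPKM (+ 0.1) of the cytosolic to the mitochondrial gene for the same amino acid in each pig (x axis), for 14 pairings ordered by the difference between the groups, with HF pigs as circles, LF pigs as squares and short bars at the group means of 3 pigs. Points right of 0 have the cytosolic gene higher, as in all 6 pigs for 11 pairings, and the pairings at the top have their HF points furthest left of their LF points.

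Of 106 tested genes (of 114 listed) in 7 lists for the steps around tRNA charging, limma called 0, with 25 lower and 5 higher at an unadjusted p under 0.05, beside 13.8% and 11.0% of all tested genes. The share lower at that p went with level: it was 22.7% of all tested genes at 5 FPKM or more and 5.69% under 5 FPKM. The 30 list genes past that p were 19 without HF01 or HF03, 22 without HF02 and 16 without LF01 or LF03. The highest number with a pig left out was 35. The list of elongation factors (the carriers of charged tRNA, their exchange factors and others) had 7 of 9 tested genes negative. The median of these genes was -0.21 (-0.56 without HF02, -0.33 without HF03 and -0.41 for those at 5 FPKM or more). Their median level was 125 FPKM. Of all tested genes at 20 FPKM or more, 75.3% were negative, with a median of -0.29, so the count and median of this list lie near those of abundant genes. EEF1D, the exchange factor subunit that holds VARS, was at 176, 136 and 177 FPKM (HF) against 314, 271 and 237 FPKM (LF), and EEF1B2, its partner subunit, at 99.4, 105 and 89.0 FPKM (HF) against 179.6, 140.3 and 137 FPKM (LF). Both had all HF pigs below all LF pigs, as did 33.4% of all tested genes at 20 FPKM or more. EEF1D and EEF1B2 had log2 fold changes of -0.75 and -0.63, with adjusted p of 0.103 and 0.12 from limma. The carriers of charged tRNA, named after their values were seen, overlapped between the groups: EEF1A2, the form of muscle, was at 1825 ± 457 FPKM (HF) against 1949 ± 448 FPKM (LF), and TUFM, the mitochondrial form, at 27.4 ± 8.12 FPKM (HF) against 29.9 ± 7.80 FPKM (LF) (SD, n = 3 each). GFM2, a mitochondrial factor that recycles ribosomes, lay above in HF, at 3.08, 3.62 and 4.25 FPKM (HF) against 2.29, 2.23 and 2.31 FPKM (LF) (a log2 difference of 0.65 with a standard error of 0.19 and an adjusted p = 0.110), and TSFM, the exchange factor of TUFM, below, at 21.2, 15.9 and 17.7 FPKM (HF) against 25.2, 26.7 and 36.9 FPKM (LF) (a log2 difference of -0.68 with a standard error of 0.22 and an adjusted p = 0.123). These factors thus had members on both sides.

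Genes that finish and repair tRNA had 13 of 17 tested members negative, with a median of -0.35 (-0.22 without HF01) and 6 lower at an unadjusted p under 0.05. Over all tested genes 51.9% were negative and 13.8% lower at that p. At 5 FPKM or more 68.1% were negative (median -0.21) and 22.7% lower at that p. The HF pigs lay below the LF pigs in 17.1% of all tested genes and in 27.0% of those at 5 FPKM or more. These shares stand beside the other lists of this paragraph too. The genes given pig by pig were picked by smallest p, a choice that favours groups without overlap. TRNT1, which adds the CCA end to which every amino acid is joined, was at 5.49, 6.81 and 6.06 FPKM (HF) against 10.4, 8.90 and 10.6 FPKM (LF), without overlap (a log2 difference of -0.70 with a standard error of 0.18 and an adjusted p = 0.0966). SSB, which protects new tRNA ends, was at 15.3, 22.1 and 18.5 FPKM (HF) against 29.3, 25.5 and 29.5 FPKM (LF). DDX1 and RTCB, of the tRNA ligase, were at 54.9, 63.2 and 46.5 FPKM (HF) against 72.1, 86.2 and 81.7 FPKM (LF) and at 9.75, 9.01 and 8.11 FPKM (HF) against 13.4, 10.4 and 15.7 FPKM (LF). In all 3 the HF pigs lay below the LF pigs, and they had log2 fold changes of -0.60, -0.55 and -0.54 and adjusted p of 0.130, 0.146 and 0.167. The list of mitochondrial tRNA modification had 13 of 17 negative, with a median of -0.34. TRMT10C, a subunit of the enzyme that cuts and methylates mitochondrial tRNA, was at 5.38, 6.80 and 6.47 FPKM (HF) against 10.4, 11.6 and 9.38 FPKM (LF), without overlap (a log2 difference of -0.74 with a standard error of 0.19 and an adjusted p = 0.0899). Of further genes that modify tRNA bases, QTRT1 was at 0.802, 0.343 and 1.29 FPKM (HF) against 1.67, 1.40 and 1.77 FPKM (LF), TRMU at 4.68, 4.13 and 4.63 FPKM (HF) against 7.07, 4.90 and 10.5 FPKM (LF) and NSUN2 at 7.38, 6.48 and 8.49 FPKM (HF) against 9.67, 9.99 and 10.7 FPKM (LF). None of these overlapped, and they had log2 fold changes of -1.05, -0.66 and -0.44 (adjusted p = 0.164, 0.184 and 0.185). Of the start, stop and charging partners of mitochondrial translation, 10 of 12 were negative, with a median of -0.28. PTRH2, a peptidyl-tRNA hydrolase, was at 15.6, 18.5 and 10.3 FPKM (HF) against 21.2, 27.1 and 31.4 FPKM (LF), and MTRF1L, a release factor, at 3.50, 4.39 and 3.43 FPKM (HF) against 5.44, 6.08 and 5.28 FPKM (LF). GATB, of the glutamine amidotransferase, was at 4.28, 3.57 and 2.67 FPKM (HF) against 4.92, 4.42 and 6.95 FPKM (LF), and MTRF1, a release factor homologue, at 4.97, 5.97 and 4.26 FPKM (HF) against 7.44, 5.57 and 7.15 FPKM (LF). Only MTRF1 of these 4 overlapped, and they had log2 fold changes of -0.86, -0.56, -0.61 and -0.40, with adjusted p of 0.115, 0.126, 0.180 and 0.269. Among the genes of proofreading, selenocysteine and synthetase-like proteins, 4 of 6 tested were negative, with a median of -0.10 that ran from -0.25 (without HF03) to -0.012 (without HF02) and was -0.71 at 5 FPKM or more. AARSD1, which clears mischarged alanine tRNA, was at 12.7, 9.49 and 13.6 FPKM (HF) against 17.1, 21.8 and 22.7 FPKM (LF), and DTD1, which removes D-amino acids from tRNA, at 5.64, 5.69 and 6.2 FPKM (HF) against 10.3, 9.16 and 8.16 FPKM (LF). Neither overlapped (log2 fold changes -0.78 and -0.64, adjusted p = 0.101 and 0.101 from limma). TARSL2, a further cytosolic threonine enzyme, stayed under the minimum, with its highest value, 0.240 FPKM, in HF02.

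RNA polymerase III, which makes tRNA, and its factors had 15 of 20 tested genes negative, with a median of -0.14 (-0.089 without LF03 and -0.28 at 5 FPKM or more), 1 lower and 1 higher at an unadjusted p under 0.05. Of all tested genes 51.9% were negative, 68.1% at 5 FPKM or more and 37.3% under 5 FPKM. At that p 13.8% of all tested genes were lower and 11.0% higher. The HF pigs lay below the LF pigs in 17.1% of all tested genes and above them in 12.8%. POLR3G, a polymerase subunit, was at 1.64, 2.16 and 1.47 FPKM (HF) against 3.19, 2.42 and 3.29 FPKM (LF) (log2 fold change -0.73, adjusted p = 0.116), and BDP1, a subunit of its initiation factor, at 1.17, 1.73 and 1.61 FPKM (HF) against 0.872, 0.921 and 1.07 FPKM (LF) (0.59, adjusted p = 0.194). POLR3C was at 1.02, 1.07 and 1.2 FPKM (HF) against 1.80, 1.21 and 1.93 FPKM (LF) and POLR3F at 5.63, 5.07 and 5.91 FPKM (HF) against 5.49, 9.01 and 8.93 FPKM (LF), and only the latter overlapped. These subunits had log2 fold changes of -0.53 and -0.46 (adjusted p = 0.237 and 0.263). Of the tested polymerase subunits only POLR3A, named after its values were seen, had a positive value (log2 fold change 0.04, standard error 0.21). The other positive values of the list were those of factors such as BDP1, and tRNA itself was not measured.

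ATF4 is the transcription factor through which cells short of amino acids raise many cytosolic synthetase genes. Its message, named like ASNS and TARSL2 after the values were seen, was at 1361, 1253 and 1203 FPKM (HF) against 2668, 1398 and 2154 FPKM (LF), HF below LF (a log2 difference of -0.66 with a standard error of 0.27 and an adjusted p = 0.182). Of the 25 tested genes of the amino acid response, 13 were positive and 12 negative, where 51.9% of all tested genes were negative. Their median was 0.07, and it turned negative when any HF pig was left out (to -0.11 without HF03). At an unadjusted p under 0.05, 3 of the 25 were higher and 4 lower, shares near those of all tested genes (11.0% and 13.8%). PHGDH and PSPH, enzymes of serine synthesis, lay above in HF, at 0.487, 2.41 and 2.22 FPKM (HF) against 0.0176, 0.349 and 0.134 FPKM (LF) for PHGDH and 2.87, 3.43 and 4.83 FPKM (HF) against 1.56, 1.76 and 0.289 FPKM (LF) for PSPH. SLC3A2, the heavy chain of amino acid transporters, lay below, at 21.6, 41.8 and 31.6 FPKM (HF) against 56.5, 112 and 51.9 FPKM (LF), and EIF4EBP1, a brake on translation, was at 57.2, 29.5 and 85.6 FPKM (HF) against 127, 79.3 and 122 FPKM (LF), overlapping. The log2 fold changes of PHGDH, PSPH, SLC3A2 and EIF4EBP1 were 2.70, 1.81, -1.17 and -1.03, with adjusted p of 0.0902, 0.113, 0.110 and 0.155 from limma. ASNS, asparagine synthetase, was at 18.9, 24.9 and 8.66 FPKM (HF) against 3.06, 27.3 and 1.80 FPKM (LF), so that LF pigs held both the highest value and the lowest ones. No gene of this list passed.

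No marker of another cell type passed limma. Over all tested genes 51.9% were lower on average in HF, while most of these markers were higher. That held for all 6 fibroblast markers, whose sums overlapped at 291 to 776 FPKM in HF and 273 to 329 FPKM in LF. All 5 smooth muscle and pericyte markers were positive, with overlapping sums (178 to 385 FPKM in HF and 93.2 to 188 FPKM in LF), and so were 3 of 4 tested Schwann cell markers, whose sums did not overlap (22.9 to 57.5 FPKM and 15.3 to 18.0 FPKM). All 5 endothelial markers were positive, again with overlap (62.3 to 78.6 FPKM and 37.2 to 67.9 FPKM), and all 5 macrophage markers, with overlapping sums (4.36 to 10.8 FPKM and 5.09 to 6.55 FPKM). Of 5 tested fat cell markers 4 were positive, and the sums of the fat cell markers overlapped (80.0 to 203 FPKM and 91.5 to 194 FPKM). The negative one, LIPE, was at 2.93, 8.32 and 7.86 FPKM (HF) against 63.4, 5.43 and 38.0 FPKM (LF), overlapping. Its log2 fold change was -2.01, with an adjusted p = 0.182 from limma. None of these lists had a gene listed at 0. Of 9 muscle fibre markers 6 were negative and 3 positive. Red blood cell markers, with AHSP at 0 in at least 1 pig, summed to 65.4 to 116 FPKM in HF and 26.1 to 92.7 FPKM in LF, with overlap. Their part in the synthetase values was not tested, and in whole muscle fewer cells of a type and less RNA per cell cannot be told apart.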

How the data were processed

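RNA of the longissimus dorsi of 6 pigs was sequenced by the authors, with 1 library per pig and 3 pigs per group. They cleaned the reads with fastp, aligned them to Sscrofa11.1 with HISAT2 and computed FPKM with cufflinks; these deposited FPKM values were used here. Columns of the authors' own DESeq2 comparison (fold changes, test statistics, p) and a second sheet repeating the FPKM of 16596 genes were not used. Of 8278 blank symbols, 1088 were filled by gene ID from a table of gene names. Because FPKM are not counts, the groups were compared with limma 3.58.1 (R 4.3.3; trend in the variance) on log2(FPKM + 0.1) for genes averaging 0.5 FPKM or more, without a block, with Benjamini-Hochberg adjustment. The fit was also run on simulated data drawn independently for each gene and pig. Such data hold no shift shared by the genes of a pig, and their outcome is not used here. Neither strand nor the sharing of reads between overlapping genes could be checked, and 19 of the 36 members overlap another listed gene. By rule, values in every pig are given for AIMP1, AIMP2, EEF1E1 and EPRS, for the members with the smallest and the largest p and the highest and lowest levels of each class, for those of opposite sign to their class median, and for up to 4 genes of each list with the smallest p; further genes are named as chosen after their values were seen. Members and lists were chosen with earlier results of these data known. Alternatives were other pseudocounts, level minimums, scalings (median of ratios and TMM, written out in R), variance models, a replicate block, each pig left out and the members matched by ID. As nothing in the labels names separate litters or batches, p-values measure only the spread between these pigs. The values of 1 mitochondrial member, which stays in the counts, medians and sums, and of 1 marker list are not reported here.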

Additional observations from a re-analysis of the deposited data

How the results depend on the processing

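No member reached an adjusted p under 0.05 in limma under any alternative, and the cytosolic median stayed negative (-0.47 to -0.32 with each pig left out). With each pig left out, the cytosolic genes lower at an unadjusted p under 0.05 numbered 2 to 7, the mitochondrial ones 0 to 2, the mitochondrial median ran from -0.10 to 0.062, the pathway genes past that p from 16 to 35, and the median pair difference from -0.55 to -0.25. At a mean of at least 5 FPKM the mitochondrial median was -0.35 with 1 gene lower, 18 pathway genes passed in place of 30, and the amino acid response median turned to -0.29. TMM scaling turned the mitochondrial median to 0.019, the all-gene median to 0.020, IARS to 0.013 and LARS2 to 0.020. Median-of-ratios scaling turned AIMP2 to -0.034 and EARS2 to -0.0014, a pseudocount of 1 turned AIMP2 to -0.0068, and no filter turned the all-gene median to 0.060. With a pig left out, signs also turned within AIMP2 (-0.25 to 0.26), EARS2 (-0.095 to 0.22), FARS2 (-0.048 to 0.50), GARS (-0.17 to 0.018), IARS (-0.11 to 0.093), LARS2 (-0.13 to 0.046), VARS2 (-0.065 to 0.60) YARS2 (-0.17 to 0.19), NARS2 (-0.46 to 0.13), MARS2 (-0.31 to 0.020), WARS2 (-0.51 to 0.19) and SARS2 (-0.0061 to 0.44), the amino acid response list (-0.11 to 0.14) and the all-gene median (-0.079 to 0.026). Over all genes, calls (8, with 4 higher and 4 lower) were 1 (0 and 1) without a filter, 2 (1 and 1) without a trend, 20 (12 and 8) under median-of-ratios and 17 (12 higher) under TMM scaling, 14 (9 higher) with a robust fit, and 704 (315 and 389) at an adjusted p under 0.10; 2 were higher at a pseudocount of 1 and 2 at a mean of at least 5 FPKM. With a pig left out they were 1 to 226 (0 to 102 higher, 1 to 124 lower). With a replicate block 14 were called (8 lower); same-numbered pigs did not deviate together (correlations -0.0435, 0.0882 and 0.0160), so the numbers are not taken as pairs. The cause of these shifts was not tested. Motif searches in promoters and proteins were not run. FPKM hold no read depth, so counting error is not known.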
